A study of Mus musculus with 12 samples.

Results

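The genes described here are 9 complement components and receptors of the mouse: the C1q chains C1qa, C1qb and C1qc, the opsonin precursors C3 and C4b, the anaphylatoxin receptors C3ar1 and C5ar1, and the integrin chains Itgam and Itgb2, which together form complement receptor 3. They were taken by gene symbol from 2 tables of C57BL/6 mice, and all 9 were found among the 29957 named entries of a table of hippocampal microglia and the 14663 named entries of a table of whole hippocampus. Microglia, the resident macrophages of the brain, came from mice of 24 months (3 libraries) and of 3 months (3 libraries). Whole hippocampus came from mice of 18 months (3 libraries) and of 6 months (3 libraries). No genotype or treatment other than age is given. The isolation of the microglia is not described in the labels, nor is it stated that each library is a mouse of its own, so the spread behind the p-values may be partly technical. The 2 tables were normalized separately and the ages differ, so the ages were compared only within a tissue.

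Complement is a cascade of proteins that tags cells and debris for removal. C1q, built from the products of C1qa, C1qb and C1qc, binds its targets and starts the classical pathway, which cleaves C4 and C2 and then C3. Fragments of C3 are bound by complement receptor 3 on phagocytes, while the small fragments of C3 and C5 act on the receptors encoded by C3ar1 and C5ar1. In the brain microglia are known as the main source of C1q, and complement tagging of synapses has been tied to synapse removal in development and in models of neurodegeneration.

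The C1q genes lie side by side on chromosome 4 of the mouse genome (RefSeq positions on GRCm38.p6), in the order C1qb (136880126 to 136886200), C1qc (136889801 to 136892936) and C1qa (136895916 to 136898844). They share the minus strand, are separated by 3600 and 2979 bases, and no other RefSeq gene starts between them. Their promoters are shown because these chains were the most abundant members in microglia and their log2 changes shared a sign within each tissue. RefSeq promoter windows were at hand for 6 of the 9 members, C1qb, C1qc, C3, C3ar1, C5ar1 and Itgam. In these sequences the capitals mark the letters GAGGAA, the core of the motif of PU.1, a transcription factor of myeloid cells, or its reverse complement TTCCTC. The window of C1qb is chr4:136886151-136886450 and that of C1qc is chr4:136892865-136893164, both on the minus strand of GRCm38.p6 and written 5′ to 3′. Against the gene starts given above, the window of C1qb runs from 250 bases before to 50 bases after, and that of C1qc from 228 bases before to 72 bases after.
C1qb: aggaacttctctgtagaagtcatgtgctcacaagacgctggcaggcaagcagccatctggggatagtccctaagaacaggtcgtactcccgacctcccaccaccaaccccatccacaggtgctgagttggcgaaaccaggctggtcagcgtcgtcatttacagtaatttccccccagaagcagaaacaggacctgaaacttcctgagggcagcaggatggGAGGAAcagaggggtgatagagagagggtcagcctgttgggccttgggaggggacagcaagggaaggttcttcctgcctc
C1qc: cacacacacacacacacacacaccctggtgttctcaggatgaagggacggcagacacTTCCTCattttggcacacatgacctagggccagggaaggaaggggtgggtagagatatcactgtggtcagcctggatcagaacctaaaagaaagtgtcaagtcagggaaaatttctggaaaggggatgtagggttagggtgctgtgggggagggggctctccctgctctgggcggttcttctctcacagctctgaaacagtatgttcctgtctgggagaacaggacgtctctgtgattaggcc
The match begins 30 bases before the gene's start in C1qb and 171 bases before it in C1qc. The core was found on either strand in 3 of the 6 member windows (C1qb, C1qc and Itgam) and in 28.3% of the 32851 promoter windows of the table. The interferon response motif and the letters TTCNNNGAA of the STAT motif were in 0 of the 6 member windows, against 3.44% and 8.30% of all windows. The letters TTGCNNAA of the C/EBP motif were in the window of C3 alone among the 6, against 10.8% of all windows.

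The microglia libraries held 8068023 to 14217142 estimated counts in named genes. All 12 microglia identity genes on a list of markers, such as Csf1r, P2ry12 and Tmem119, were detected in every microglia library. At 24 months they summed to 49512.5, 51107.6 and 66166.7 CPM (counts scaled to the library's total), lowest in replicates 1 and 2, against 72246.2, 70987.0 and 69347.2 CPM at 3 months. The 10 immediate early genes, such as Fos and Egr1, which respond within minutes to stimulation or cell handling, summed to 27235.5, 29657.0 and 1204.8 CPM at 24 months, against 1492.5, 871.6 and 864.2 CPM at 3 months. The sum of 13 neutrophil and monocyte markers reached 2922.0 CPM in 24 month replicate 1, while the remaining libraries lay between 2.79 and 64.6 CPM. By the identity and immediate early sums 24 month replicates 1 and 2 stood apart from the other 4 libraries. By the neutrophil and monocyte sum only 24 month replicate 1 did so. Markers of astrocytes summed to 346.0, 460.6 and 332.8 CPM at 24 months, against 130.2, 238.4 and 267.6 CPM at 3 months. Markers of endothelium summed to 51.9, 139.6 and 66.4 CPM at 24 months, against 23.5, 45.5 and 24.7 CPM at 3 months. Both sums were low but higher in every 24 month library than in any 3 month library, and their part in the results was not tested. In whole hippocampus all 12 identity genes were tested, with sums of 640.2 to 739.1 normalized counts at 18 months and 543.6 to 657.0 at 6 months.

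C1q mRNA was among the most abundant in microglia at both ages. C1qb, the B chain, ranked 4 to 6 of all genes by TPM (a transcript level corrected for length and library total) in the 24 month libraries and 4 in each 3 month library. Its level was 11738.8, 10578.7 and 14584.2 TPM at 24 months, against 13325.6, 14894.8 and 13599.1 TPM at 3 months. The ages overlapped, as 24 month replicates 1 and 2 lay below all 3 month libraries and 24 month replicate 3 lay inside their range. C1qa, the A chain, had 6775.7, 6380.8 and 8816.9 TPM at 24 months, against 9068.8, 8605.7 and 8932.5 TPM at 3 months. C1qc, the C chain, had 1182.2, 1200.9 and 1984.3 TPM at 24 months, against 2102.1, 1830.5 and 1779.9 TPM at 3 months. Both genes showed the layout of C1qb, with 24 month replicates 1 and 2 lowest of all 6 libraries and 24 month replicate 3 among the young ones.

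The C1q chains together took 2.20%, 2.02% and 2.83% of all TPM at 24 months, against 2.75%, 2.81% and 2.71% at 3 months. C1qb made up 58.4% ± 1.08 of the C1q sum at 24 months and 56.4% ± 2.23 at 3 months (SD, n = 3 each). C1qa made up 34.8% ± 0.368 at 24 months and 35.9% ± 1.68 at 3 months (SD, n = 3 each). C1qc made up 6.81% ± 0.923 at 24 months and 7.71% ± 0.756 at 3 months (SD, n = 3 each). Over all libraries the share of C1qc ran from 6.00% to 8.58%. Per length, C1qb exceeded C1qa by 1.68 ± 0.0442 times at 24 months and 1.57 ± 0.138 times at 3 months (SD, n = 3 each). C1qb exceeded C1qc by 8.70 ± 1.29 times at 24 months and 7.37 ± 0.928 times at 3 months (SD, n = 3 each). Each of these proportions overlapped between the ages.

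**Figure D1:**
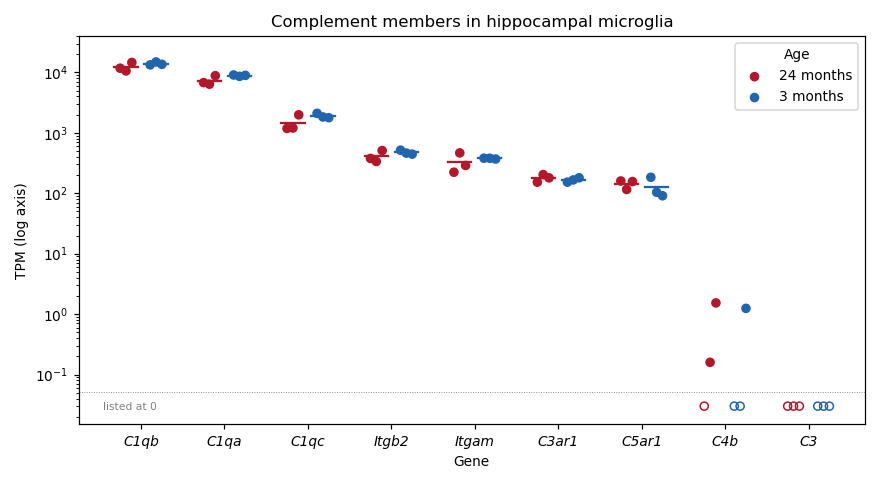
Level of each complement member in hippocampal microglia, in TPM on a log axis, with 1 point per library (24 months red, 3 months blue), a bar at the mean where no library was at 0, and open circles for libraries listed at 0. The levels run from at least 10578.7 TPM for C1qb to 0 in all 6 libraries for C3, and no gene separates the ages.

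By edgeR's quasi-likelihood test on the counts, 0 of the 7 tested members differed between 24 and 3 months, and 0 of all 10663 genes tested (0%) did so with adjusted p under 0.05. At an unadjusted p under 0.05 there were 0 members and 590 genes (5.53%), 375 of them higher (3.52%) and 215 lower (2.02%) at 24 months. No member had every 24 month library above every 3 month one, as 7.26% of genes did, or below, as 6.18% did. DESeq2 called 141 genes (1.36%), 0 of them members. The median log2 change of the 7 tested members was -0.18, with 5 lower and 2 higher, against 0.01 over all genes tested. The authors' deposited table called 243 of 12083 genes (2.01%), 186 higher (1.54%) and 57 lower (0.472%), and no member was among them. The log2 change of C1qa was -0.28 ± 0.18 (SE; 95% interval -0.69 to 0.13; adjusted p = 0.973). That of C1qb was -0.18 ± 0.18 (SE; interval -0.59 to 0.23; adjusted p = 0.993), and that of C1qc was -0.39 ± 0.23 (SE; interval -0.93 to 0.16; adjusted p = 0.973). On a linear scale the interval of C1qb ran from 0.663 to 1.18 times the 3 month level and that of C1qc from 0.524 to 1.11 times. The size of these changes moved with the library left out. Without 24 month replicate 1 the log2 changes of C1qa, C1qb and C1qc were -0.27, -0.19 and -0.29. Without 24 month replicate 2 they were -0.19, -0.0789 and -0.27. Without 24 month replicate 3 they were -0.43, -0.31 and -0.67, and the adjusted p of 0.289, 0.497 and 0.239 were the lowest over the libraries left out.

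The C1q chains had lower counts in the same libraries as the sum of the microglia identity genes. Not every identity gene followed this sum. P2ry12 had 3635.6 and 3614.9 CPM in 24 month replicates 1 and 2, against 2945.5 CPM in 24 month replicate 3. Of the 12 identity genes, 9 had a lower mean at 24 months, 0 were called, and 4 (Csf1r, Tmem119, Fcrls and Sall1) lay at 24 months wholly below the 3 month range. With each library scaled to the mean of the identity genes, the log2 change was -0.03 ± 0.14 (SE) for C1qa, 0.07 ± 0.14 for C1qb and -0.15 ± 0.19 for C1qc (edgeR, adjusted p 0.991, 0.982 and 0.981). This scaling moved the median log2 change of all genes to 0.27, against 0.01 with the scaling to all genes. The part of the immediate early response and of neutrophil RNA in the C1q levels was not tested.

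Transcripts of the cleaved components were nearly missing from microglia. C3, the central component of the cascade, was listed with 0 estimated counts in all 6 libraries. A count of 0 allows up to 3 counts over a group, which is 0.0999 CPM in the 30029816 counts at 24 months and 0.0829 CPM in the 36183676 counts at 3 months. C4b, the mouse C4 gene, had 0, 6 and 59 estimated counts at 24 months, against 0, 0 and 60 at 3 months. In sum this was 65 counts or 2.16 CPM (exact Poisson 95% interval 1.67 to 2.76) at 24 months and 60 counts or 1.66 CPM (1.27 to 2.13) at 3 months. The intervals cover counting error only, and most C4b counts of each age came from 1 library, so no difference was detectable at this depth. Neither gene passed the filter on low counts. Zeros in single libraries were not rare in these data. Of the 7840 genes that averaged over 10 CPM, 186, 26 and 39 were without a count at 24 months, against 394, 62 and 34 at 3 months.

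The receptors were expressed at lower levels per length than C1q. C3ar1, the receptor for the C3a fragment, had 152.6, 203.5 and 179.9 TPM at 24 months, against 152.7, 166.1 and 180.3 TPM at 3 months. C5ar1, the receptor for C5a, had 159.6, 115.7 and 156.3 TPM at 24 months, against 183.9, 103.9 and 91.0 TPM at 3 months. The ages overlapped in both, and 3 month replicate 1 had the highest C5ar1 of all libraries. The log2 change was 0.13 ± 0.17 (SE; interval -0.27 to 0.52) for C3ar1 and 0.19 ± 0.33 (SE; interval -0.57 to 0.95) for C5ar1, with edgeR adjusted p of 0.998 each. Without 3 month replicate 1 the change of C5ar1 was 0.58, and without 3 month replicate 3 it was -0.04.

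Itgam, the alpha chain of complement receptor 3 also known as CD11b, had 222.8, 465.4 and 288.5 TPM at 24 months, against 380.2, 379.7 and 368.8 TPM at 3 months. The 24 month libraries spanned the young ones, with replicate 2 above and replicates 1 and 3 below all of them. Itgb2, the beta chain CD18, had 376.5, 335.4 and 508.6 TPM at 24 months, against 516.4, 462.0 and 444.4 TPM at 3 months. The log2 change was -0.13 ± 0.26 (SE; interval -0.75 to 0.48) for Itgam and -0.20 ± 0.20 (SE; interval -0.67 to 0.28) for Itgb2, with edgeR adjusted p of 0.998 and 0.993. Without 24 month replicate 2 the change of Itgam was -0.48, and without 24 month replicate 1 it was 0.0464. That of Itgb2 ran from -0.39 (without 24 month replicate 3) to -0.0850 with single libraries left out. Per length, Itgb2 stood at 1.69, 0.721 and 1.76 times Itgam in the 24 month libraries, against 1.36, 1.22 and 1.20 times at 3 months, so 24 month replicate 2 was the only library in which Itgam exceeded Itgb2. Itgam shares exons on its own strand with the GENCODE gene Gm49368, which has no entry of its own in the microglia table, so the authors' assignment of those reads is not known.

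In order of mean TPM at 24 months the members ran from C1qb through C1qa, C1qc, Itgb2, Itgam, C3ar1, C5ar1 and C4b to C3, and the order was the same at 3 months. The steps from C1qb to C1qa, from C1qa to C1qc and from C1qc to Itgb2 exceeded the spread in each age. At 24 months Itgb2 (406.8 ± 90.5 TPM, SD, n = 3) overlapped Itgam (325.6 ± 125.5 TPM), while at 3 months it lay above it in every library (474.2 ± 37.6 and 376.2 ± 6.42 TPM). C3ar1 and C5ar1 overlapped at both ages, with 178.7 ± 25.5 and 143.9 ± 24.5 TPM at 24 months.

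**Figure D2:**
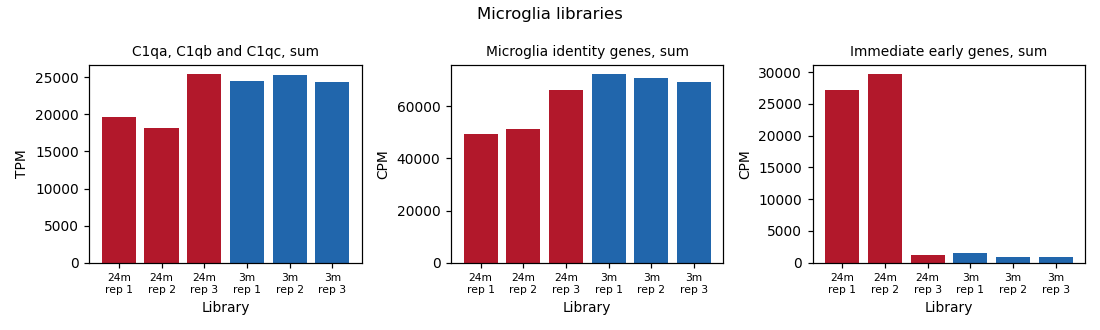
Bars give 1 microglia library each (24 months red, 3 months blue): the summed TPM of the C1q chains, and in CPM the sums of 12 microglia identity genes and of 10 immediate early genes. The C1q and identity sums are lowest, and the immediate early sum highest, in 24 month replicates 1 and 2.

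In whole hippocampus the C1q chains had higher means in the older group, opposite in sign to microglia, a difference between tissues that was not tested, and C4b had the greatest log2 change of the tested members. Reads of whole tissue cannot tell a change in the number of cells of a type from a change in mRNA per cell. C4b had 42.3, 160.1 and 105.7 normalized counts at 18 months, against 32.5, 37.5 and 37.4 at 6 months. Every 18 month library lay above every 6 month one, replicate 1 by little and replicates 2 and 3 by far. The mean was 102.7 ± 59.0 normalized counts at 18 months and 35.8 ± 2.84 at 6 months (SD, n = 3 each).

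The log2 change of C4b was 1.30 ± 0.42 (SE), or 2.47 times the 6 month level with a 95% interval of 1.32 to 4.60 times. This did not pass in limma's moderated test across all genes (adjusted p = 0.877). By limma 0 of the 7 tested members and 0 of 13491 genes (0%) had an adjusted p under 0.05, with 725 genes (5.37%) at an unadjusted p under 0.05, 288 of them higher (2.13%) and 437 lower (3.24%). C4b and C1qc were the members among these. The authors' deposited table gives C4b a log2 value of 1.55 ± 0.39 (SE) when turned to 18 minus 6 months, with an adjusted p of 0.0316. In that table C4b was the only member among the 36 of 11818 genes (0.305%) with an adjusted p under 0.05, of which 14 were higher (0.118%) and 22 lower (0.186%) at 18 months. The limma fit and the deposited table thus differed in the call. Without 18 month replicate 1 the limma change was 1.84 (adjusted p = 0.215), and without 18 month replicate 2 it was 0.89 (adjusted p = 0.780). C4a, the near-identical neighbour of C4b, has no entry in either table used here, so reads of the pair cannot be told apart.

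Relative to C1qa, C4b varied between the hippocampus libraries. In hippocampus the normalized count of C4b was 0.577, 2.12 and 1.52 times that of C1qa at 18 months, against 0.492, 0.671 and 0.737 times at 6 months. In microglia the same ratio of counts was 0, 0.000146 and 0.000993 at 24 months, against 0, 0 and 0.000730 at 3 months. These are ratios of counts within a library, not per length, and were not compared between the tissues. With each hippocampus library scaled to the microglia identity genes, the log2 change of C4b was 1.34 ± 0.40 (SE; limma, adjusted p = 0.999).

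Marker sums of other cells were compared beside C4b and C1q. The 9 neuronal markers summed to 15556.2, 15319.8 and 15421.7 normalized counts at 18 months, against 14879.4, 13259.5 and 14078.5 at 6 months, without overlap. Most of this sum was Camk2a, with 9209.1, 8896.9 and 8407.8 at 18 months, against 7986.5, 6904.0 and 7519.5 at 6 months. The list itself was mixed, with 5 genes higher and 4 lower at 18 months. Rbfox3 and Camk2a lay wholly above the 6 month range and Slc17a7 wholly below it. The 3 markers of oligodendrocyte precursors summed to 29.1, 31.0 and 28.2 at 18 months, against 58.2, 48.9 and 37.1 at 6 months, also without overlap and lower. None of these 3 separated the ages by itself. Pdgfra had 27.3, 22.5 and 27.5 at 18 months, against 33.9, 45.3 and 25.1 at 6 months. Cspg4 and Olig2 were low, and Cspg4 was at 0 in some libraries of both ages. The sums of the next lists overlapped. The 9 astrocyte markers summed to 4454.2, 4507.3 and 5903.8 normalized counts at 18 months, against 5270.9, 4845.0 and 5233.4 at 6 months. Gfap, the filament protein that rises in reactive astrocytes, had 486.3, 703.0 and 893.8 normalized counts at 18 months, against 501.9, 454.3 and 476.5 at 6 months. It too was high in 18 month replicates 2 and 3 and not in replicate 1. Of the 9 astrocyte markers 4 were higher and 5 lower at 18 months. Aqp4 had 91.6, 76.2 and 152.6 at 18 months, against 149.7, 157.5 and 133.1 at 6 months, lowest in 18 month replicate 2. The 7 oligodendrocyte markers summed to 8159.9, 7727.5 and 9264.9 at 18 months, against 8551.3, 7311.4 and 7742.7 at 6 months. Choroid plexus markers, which enter with the dissection, summed to 4528, 12855.6 and 668.5 at 18 months, against 358.0, 9061.1 and 2910.3 at 6 months. This sum was highest in 18 month replicate 2, the library with the most C4b. It was next highest in 6 month replicate 2, where C4b was at 37.5. In 18 month replicate 3, where C4b was at 105.7, it was lower than in 18 month replicates 1 and 2. The part of these cells in the levels of C4b and C1q was not tested.

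**Figure D3:**
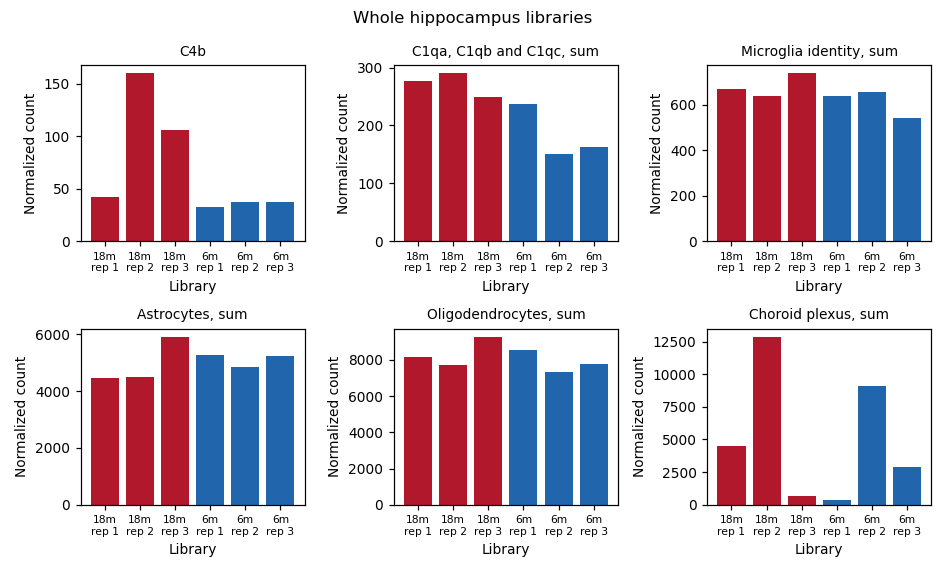
Bars give 1 whole hippocampus library each (18 months red, 6 months blue), in normalized counts: C4b, the sum of the C1q chains, and the sums of the marker lists for microglia, astrocytes, oligodendrocytes and choroid plexus. C4b is high in 18 month replicates 2 and 3, the C1q sum is above the 6 month libraries in all 18 month libraries, and the marker sums overlap between the ages.

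The C1q chains had higher means at 18 months. C1qa had 73.3, 75.5 and 69.4 normalized counts at 18 months, against 66.1, 55.9 and 50.8 at 6 months, without overlap. C1qb had 125.2, 115.1 and 136.4 at 18 months, against 122.9, 52.0 and 85.1 at 6 months, where 6 month replicate 1 lay within the older range. C1qc had 78.8, 99.7 and 42.8 at 18 months, against 47.7, 42.5 and 26.5 at 6 months, where 18 month replicate 3 lay within the younger range.

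Summed, the C1q chains had 277.4, 290.2 and 248.7 normalized counts at 18 months, against 236.7, 150.3 and 162.4 at 6 months, so that the groups did not overlap. Of the 7 tested members, C4b and C1qa had every 18 month library above every 6 month one, as had 678 of the 13491 genes tested (5.03%), and 0 members lay wholly below, as 5.93% of genes did. The median log2 change of the 7 was 0.34, with 6 higher and 1 lower, against -0.04 over all genes tested. Only genes that passed a minimum value were tested, so these figures do not cover C3 and C5ar1.

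The log2 change of C1qa was 0.34 ± 0.28 (SE; interval -0.26 to 0.94; limma, adjusted p = 0.918). That of C1qb was 0.61 ± 0.29 (SE; interval -0.02 to 1.24; adjusted p = 0.909). That of C1qc was 0.86 ± 0.39 (SE; interval 0.04 to 1.69; adjusted p = 0.909). The authors' deposited table, turned to 18 minus 6 months, gives 0.33 ± 0.29, 0.49 ± 0.29 and 0.92 ± 0.39 (SE) for C1qa, C1qb and C1qc, with adjusted p of 0.910, 0.774 and 0.510. Without 6 month replicate 2, the library with the least C1qb, its limma change was 0.29. Without 18 month replicate 2 the change of C1qc was 0.61, and without 18 month replicate 3 it was 1.21.

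Of the 12 identity genes of microglia, 7 had a higher and 5 a lower mean at 18 months, and 0 were called. Their mean on the log2(value + 1) scale was 4.74, 5.24 and 5.34 at 18 months, against 5.25, 5.10 and 5.09 at 6 months. Among them Tmem119, a microglial membrane protein, had 59.2, 62.1 and 54.3 normalized counts at 18 months, against 41.3, 18.1 and 46.4 at 6 months, without overlap. Siglech, a lectin of microglia, had 8.77, 28.2 and 22.2 at 18 months, against 52.0, 45.6 and 30.3 at 6 months, lower without overlap. Csf1r, the receptor that keeps microglia alive, had 150.1, 52.8 and 123.3 at 18 months, against 90.9, 143.7 and 80.0 at 6 months, with overlap. Scaled to the identity genes, the log2 changes of C1qa, C1qb and C1qc were 0.38 ± 0.34, 0.65 ± 0.33 and 0.90 ± 0.44 (SE; limma, adjusted p = 0.999 each).

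**Figure D4:**
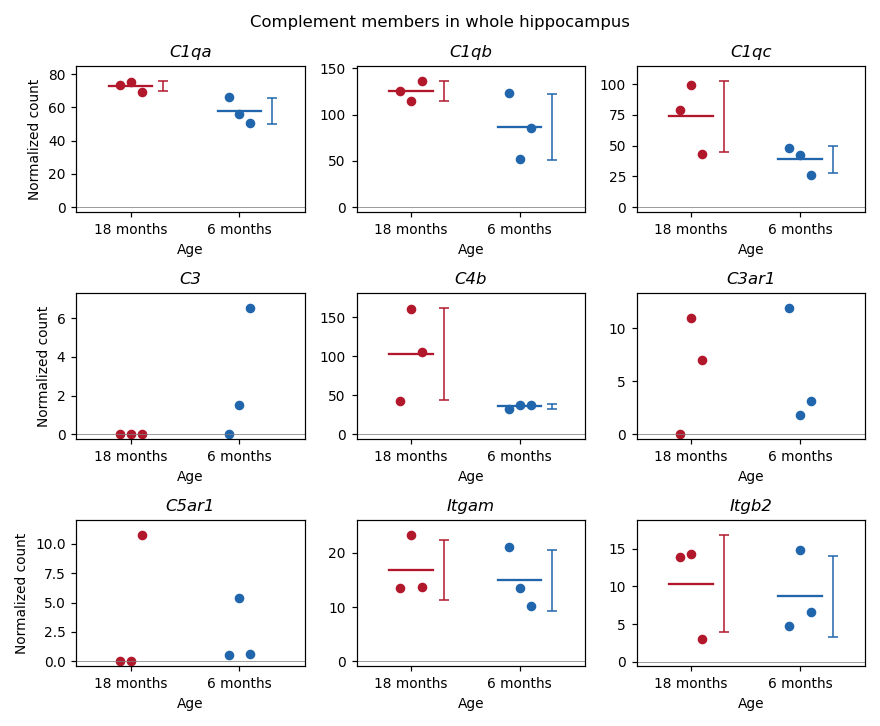
Normalized counts of the complement members in whole hippocampus, 1 point per library (18 months red, 6 months blue), with a bar at the mean and the SD (n = 3 each) beside it, except for C3, C3ar1 and C5ar1, which were listed at 0 in some libraries and show points only. C4b and C1qa do not overlap between the ages.

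The remaining members were near the lower limit in whole hippocampus. Itgam had 13.6, 23.2 and 13.6 normalized counts at 18 months, against 21.1, 13.6 and 10.2 at 6 months. Itgb2 had 13.9, 14.2 and 2.99 at 18 months, against 4.74, 14.8 and 6.59 at 6 months. The log2 changes, 0.18 ± 0.63 for Itgam and 0.13 ± 0.85 for Itgb2 (SE; limma, adjusted p 0.979 and 0.992), were smaller than their errors. The interval of Itgam ran from 0.444 to 2.87 times the 6 month level, so a change within those bounds remains possible.

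C3ar1 was listed at 0 in 18 month replicate 1 and had 11.02 and 6.97 normalized counts in the other 18 month libraries, against 11.9, 1.79 and 3.16 at 6 months. C5ar1 was at 0, 0 and 10.7 at 18 months, against 0.515, 5.36 and 0.628 at 6 months. C3 was at 0 in all 18 month libraries, against 0, 1.53 and 6.53 at 6 months. The log2 change of C3ar1 was -0.22 ± 1.08 (SE; limma, adjusted p = 0.990), while C3 and C5ar1 did not reach 1 normalized count in at least 3 libraries and were not tested.

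**Figure D5:**
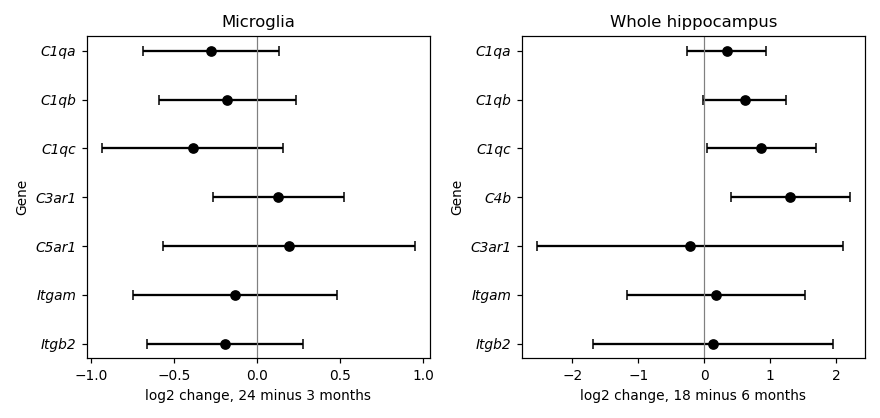
Log2 change (older minus younger) with its 95% interval for the 7 tested members in each tissue, from edgeR in microglia and limma in whole hippocampus. C1qa, C1qb and C1qc lie below 0 in microglia and above 0 in hippocampus, and C4b in hippocampus lies farthest from 0. The intervals include 0 except those of C1qc and C4b in hippocampus.

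Other genes of the cascade were taken from lists of initiation and convertase genes, terminal components, regulators, further receptors and integrin partners. Most initiation and convertase genes were not detected in microglia. Of 15 initiation and convertase genes 14 were in the microglia table, 9 of them were at 0 in all 6 libraries (C1rb, C1s1, C1s2, Cfb, Cfd, Masp2, Mbl1, Mbl2 and Fcna), and 2 were tested. C1ra, a C1 protease chain, had 0, 0.101 and 15.6 CPM at 24 months, against 0, 21.8 and 10.1 CPM at 3 months (log2 change -1.02 ± 2.50, SE). C2, the protease that joins C4b in the classical convertase, had 1.16, 1.51 and 1.80 CPM at 24 months, against 3.51, 9.35 and 2.59 CPM at 3 months. All 24 month values of C2 lay below all 3 month ones, with a log2 change of -1.78 ± 1.09 (SE; edgeR, adjusted p = 0.973), and of -1.04 without 3 month replicate 2. Cfp, properdin, a stabilizer of the alternative convertase made by neutrophils, had 19.1 CPM in 24 month replicate 1, 0 and 0.0949 CPM in the other 24 month libraries, against 0, 0 and 0.136 CPM at 3 months, and the library with Cfp was the one with the neutrophil markers. Of 7 terminal components 0 passed the filter in microglia, and 4 (C6, C7, C8b and C9) were at 0 in all 6 libraries.

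Among the 18 regulators 5 were tested in microglia, 3 with a higher and 2 with a lower mean at 24 months, and 0 were called; their median log2 change was 0.91, against 0.01 over all genes. Clu, clusterin, an inhibitor of the terminal complex, had 23.5, 2.42 and 14.5 CPM at 24 months, against 0.0746, 0.125 and 3.20 CPM at 3 months (log2 change 3.55 ± 1.81, SE; edgeR, adjusted p = 0.962), and its change ran from 2.88 to 6.94 (without 3 month replicate 3) with single libraries left out. The astrocyte marker sums were also higher in every 24 month library, though highest in replicate 2, where Clu was lowest of that age. Their part in the level of Clu was not tested. The log2 changes of Csmd3, a membrane protein with complement control domains, and Cr1l, the rodent regulator Crry, were 0.91 ± 0.78 and -0.17 ± 0.27 (SE). Their adjusted p by edgeR were 0.993 and 0.998. Without 24 month replicate 2 the change of Csmd3 was 0.115, and without 24 month replicate 3 it was 1.39.

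Of the other receptors and C1q binding proteins 5 of 8 were tested in microglia, 2 with a higher and 3 with a lower mean, and 0 were called. The log2 changes were -0.40 ± 0.34 for C1qbp, a mitochondrial protein first isolated by its binding of C1q, -0.22 ± 0.21 for Lrp1, an endocytic receptor, and -0.15 ± 0.40 for C5ar2, a second C5a receptor (SE; edgeR, adjusted p from 0.993 to 0.998). Itgax, the alpha chain of complement receptor 4, had 27.8, 28.6 and 12.5 CPM at 24 months, against 45.8, 0.125 and 0.0681 CPM at 3 months, so the ages overlapped through 3 month replicate 1 (log2 change 0.59 ± 1.92, SE). Vsig4, a C3b receptor of tissue macrophages, was at 0 in all 6 libraries. Of the 6 integrin partners, adaptor and ligands 3 were tested: Icam1, a ligand of complement receptor 3, had 615.6, 540.5 and 311.9 CPM at 24 months, against 261.6, 343.1 and 254.6 CPM at 3 months (log2 change 0.77 ± 0.28, SE; edgeR, adjusted p = 0.868). With single libraries left out the change of Icam1 ran from 0.57 (without 24 month replicate 1) to 0.99 (without 24 month replicate 3). The integrin activators Tln1 and Fermt3 had log2 changes of -0.34 ± 0.22 and -0.18 ± 0.17 (SE), with adjusted p of 0.978 and 0.993.

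In whole hippocampus 0 genes of these lists were called by limma, as were 0% of all genes tested. The authors' deposited table called 0 of them, against 0.305% of all genes with an adjusted p there. Some list genes have no adjusted p in that table and could not be called. Among these were C2, Cfb, C8g, C4bp, Cd93 and C5ar2. Of 5 tested initiation and convertase genes 3 had a higher mean at 18 months. C2 had 5.74, 5.56 and 4.88 normalized counts at 18 months, against 0, 0 and 3.98 at 6 months, without overlap (log2 change 1.90 ± 0.94, SE; limma, adjusted p = 0.909). Cfp, Cfb, the protease of the alternative convertase, and C1ra had log2 changes of -0.83 ± 1.02, 0.75 ± 0.97 and 0.74 ± 1.05 (SE). Of the 7 terminal components only C8g, a lipocalin of the C8 complex, was tested (1.19 ± 1.09, SE). Of 16 tested regulators 7 had a higher and 9 a lower mean, with a median log2 change of -0.14 against -0.04 over all genes. The smallest p-values were those of C4bp, which binds C4b (-1.82 ± 0.86, SE), Sez6l2 (0.49 ± 0.24) and Csmd1 (-0.62 ± 0.32), both neuronal proteins with complement control domains, and Cd55, which speeds decay of convertases (-1.44, 95% interval -3.58 to 0.71), with adjusted p from 0.909 to 0.913. Without 18 month replicate 3 the change of Cd55 was -0.29, and without 18 month replicate 2 it was -2.23.

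Cd93, an endothelial and myeloid glycoprotein once described as a C1q receptor, had 0, 2.47 and 0.774 normalized counts at 18 months, against 4.14, 7.15 and 8.81 at 6 months, without overlap (log2 change -2.02 ± 0.90, SE; limma, adjusted p = 0.909). Lrp1, Calr, a chaperone that binds C1q, and C5ar2 had log2 changes of 0.37 ± 0.27, -0.10 ± 0.20 and 0.36 ± 0.89 (SE). Icam2, Icam1, Tln1 and Fermt3 had log2 changes of -1.01 ± 1.05, -0.83 ± 1.13, -0.11 ± 0.33 and 0.09 ± 0.91 (SE), with adjusted p from 0.930 to 0.994. Leaving out 18 month replicate 1 gave Icam2 a change of -2.09, and leaving out 18 month replicate 3 gave -0.27.

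The genes whose levels across the 6 libraries of a tissue lay closest to the C1q mean were found by the root mean square difference of mean-centred log2 values. In microglia, over 5324 candidates in the upper part of the tested genes, these were Abcg1, a cholesterol exporter (difference 0.0453), Gm10123 (0.0474), the ribosomal protein gene Rpl11 (0.0502), Scamp4 (0.0554) and the lysosomal carboxypeptidase gene Ctsa (0.0563), where the C1q pattern itself had a root mean square of 0.225. In hippocampus, over 6741 candidates, they were Ppp1r9b (0.0660), Git1 (0.104), the neuronal splicing factor gene Rbfox3 (0.105), Ctnnbip1 (0.107) and B3gat3 (0.109), for a pattern of 0.371. For C4b the closest were Cnot3 (0.317), Uap1l1 (0.328), Cdc42ep1 (0.330), Ubr4 (0.352) and Eif3j1 (0.352), for a pattern of 0.861. These are descriptions of 6 libraries each and say nothing of shared function.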

How the data were processed

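RNA was extracted with Trizol, primed with oligo-dT, amplified by PCR after template switching and tagmented, per the labels' protocols. No strand-keeping kit is mentioned, so antisense reads cannot be told apart. No molecular identifier is mentioned either, and the Poisson intervals of C4b cover counting error only. The intervals from edgeR and limma include the spread between libraries. The submitters' processing notes list the builds GRCm39 and mm10 and, with no version or role, DESeq, DESeq2 and kallisto. The microglia files hold estimated counts, TPM and mean transcript lengths, as the authors deposited them. For each tissue they deposited normalized counts (a signal scaled between samples), and their own comparison: log2 fold change, its error, a score (the Wald statistic), and raw and adjusted p-values, per the file headers. The log2 values of the hippocampus table run 6 over 18 months (99.9% of 3165 genes past 1 log2 by its own columns) and were turned.

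Rounded estimated counts went into edgeR's quasi-likelihood test (edgeR 4.0.16, R 4.3.3, with TMM scaling and filterByExpr). CPM are on that scale, except the C4b totals and C3 limits, which were taken per group over summed counts without TMM. Hippocampus values were tested with limma 3.58.1 (moderated test, mean trend) on log2(normalized count + 1), for genes with at least 1 in at least 3 of 6 libraries, a scale that understates changes of low genes. Low hippocampus values were whole multiples of the commonest single-library value for 16.7% to 18.0% of cases (tolerance 0.1), so reads were not recovered and the depth is unknown. Standard errors of edgeR changes were taken from the change and its F statistic. Tests were two-sided, and p-values were adjusted by Benjamini-Hochberg across every gene tested in a tissue (threshold 0.05). The fits were tested on simulated data. Alternatives were DESeq2 1.42.0, other scalings, filters, pseudocounts, left-out libraries and a replicate block. The members and lists were chosen with earlier results of these data known. Named genes are all 9 members and, of each list, up to 4 tested genes with the smallest p. Lrrc17, Cfp in microglia and the single marker genes were named after their values were seen. Some results are not reported here. Entries without a gene name (0.0546% to 0.0771% of microglia counts, 0.0233% to 0.0335% of hippocampus signal) were set aside. All sample columns could be matched (0 unmatched). Sequences are from RefSeq on GRCm38.p6, exon overlaps from GENCODE M21.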

Additional observations from a re-analysis of the deposited data

Results flagged for a closer look

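C2 had log2 changes of opposite sign in the tissues, and was picked from the members and lists for this layout. In microglia every 24 month library lay below every 3 month one, as did 6.18% of genes tested (log2 change -1.78 ± 1.09, SE). In whole hippocampus every 18 month library lay above every 6 month one, as did 5.03% of genes tested (log2 change 1.90 ± 0.94, SE). Neither change passed (adjusted p = 0.973 by edgeR and 0.909 by limma). The difference between the tissues was not tested, the ages differ, and C2 was low throughout, with at most 9.35 CPM in microglia and 5.74 normalized counts in hippocampus. Its exons overlap those of the GENCODE genes Gm20547 and Zbtb12, and strand is not kept.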

How the results depend on the processing

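With 3 against 3 libraries and this spread, the intervals were wide, and changes of any size within them remain compatible with the data. No member passed under any alternative run; over all of them the adjusted p of C4b in hippocampus ran from 0.215 to 0.999 and its log2 change from 0.89 to 1.84. C4b in microglia and C3 and C5ar1 in hippocampus were tested only in settings that let them past the filter and are not compared. DESeq2 called 141 genes in microglia against 0, and leaving out a library gave 0 to 55 (55 without 24 month replicate 3). In hippocampus the range was 0 to 1, the 1 being Lrrc17 without 6 month replicate 1; the cause was not tested. Same-numbered libraries deviated together little (correlations of deviations -0.0100 to 0.0849 in microglia and 0.00941 to 0.0142 in hippocampus). Only microglia 24 month replicate 1 matched its own number best. No pairing by number was seen, but weak correlations cannot exclude one. With the replicate block 0 genes were called in either tissue, and the change of C4b in hippocampus was 1.30. Scaling to microglia identity genes turned the sign of C1qb (0.0677), Itgam (0.13), Itgb2 (0.0474), Cr1l (0.0769), Lrp1 (0.0261), C5ar2 (0.0745) and Fermt3 (0.0821) in microglia. With replicate 1 of both ages left out, Itgam was at 0.10 and C5ar2 at 0.0548. In hippocampus a pseudocount of 10 put C3ar1 at 0.0231. Leaving out single libraries turned signs in microglia for C5ar1 (-0.0405 to 0.58), Itgam (-0.48 to 0.0464), C1ra (-7.43 to 0.0493), C5ar2 (-0.54 to 0.0593) and Itgax (-0.0278 to 7.78). In hippocampus it did so for C3ar1 (-0.91 to 0.88), Itgam (-0.0670 to 0.44), Itgb2 (-0.20 to 0.77), Cfp (-1.59 to 0.16), Cfb (-0.0458 to 1.44), C1ra (-0.16 to 1.51), Calr (-0.29 to 0.0499), Icam1 (-1.79 to 0.51), Tln1 (-0.22 to 0.11) and Fermt3 (-0.52 to 0.51).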
